A study of Danio rerio with 12 samples.

Results

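Hox cluster genes were read on 12 arrays of zebrafish embryos as all probe sets whose annotated symbol was *hoxa*, *hoxb*, *hoxc* or *hoxd* followed by a number. This rule found 59 probe sets for 42 genes, of 15502 probe sets and 8793 named genes tested. Where a gene had several probe sets (13 genes), the one with the highest mean log2 signal over the 12 arrays stood for it. RefSeq's gene table (assembly GRCz12tu) lists 49 genes of these clusters in zebrafish, and all 42 members matched it by gene ID. *hoxa13a*, *hoxb13a*, *hoxb1b*, *hoxc10a*, *hoxc12a*, *hoxc13b* and *hoxd12a* were found under no probe set of these arrays and are not analysed here. The members lie in 7 clusters: 10 genes in cluster ba on chromosome 3, 9 in ca on chromosome 23, 6 in aa on chromosome 19, 6 in da on chromosome 9, 5 in ab on chromosome 16, 3 in bb on chromosome 12 and 3 in cb on chromosome 11.

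Hox genes encode homeodomain transcription factors that give cells their position along the head-to-tail axis. Within a cluster the genes lie in the order of their paralogue groups, and genes of low group number are as a rule switched on earlier and reach further towards the head than genes of high group number, an order known as collinearity. In the vertebrate embryo the first groups pattern the hindbrain, the middle groups the posterior hindbrain and trunk, and the last groups the tail end, while Fgf, Wnt and retinoic acid signals and the Cdx factors act upstream.

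The embryos were whole embryos of the TL strain at 3 stages: 30% epiboly, when the cell layer has begun to spread over the yolk (30%E), 75% epiboly, in mid to late gastrulation (75%E), and tailbud, at the end of gastrulation (TB). Wild-type (WT) embryos were uninjected, and quadruple knockdown (QKD) embryos carried morpholino antisense oligonucleotides (MOs) that targeted 4 group B1 *sox* genes together, *sox2*, *sox3*, *sox19a* and *sox19b*. Each of the 6 groups had 2 arrays, each from RNA of 100 embryos, and no array of embryos injected with a control MO was used. Whether QKD embryos were collected by the clock or by their morphology is not given in the sources used here. The study reports delayed epiboly in QKD embryos, which had not finished epiboly at the time when control embryos reached tailbud. The part of such a delay in the comparisons of QKD with WT embryos was not tested. The comparisons asked how the loss of B1 *sox* activity changed expression at each stage.

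Signals are the deposited intensities on a linear scale, and changes are differences of mean log2 signal. A gene was called lower or higher when limma gave an adjusted p under 0.05. Counts at an unadjusted limma p under 0.05 stand without a share over all probe sets, which was not counted. The shares given for adjusted calls do not apply to them. On the 12 arrays the lower quartile ran from 20.6 to 24.1, and a Hox signal below this range is described as near the background. The MOs block translation, so the transcripts of their targets do not show whether the knockdown worked. From western blots of tailbud to early somite embryos, the study reports that the MOs efficiently blocked synthesis of B1 SOX proteins. The *sox2* signal was 82.2 and 82.0 on the WT arrays against 51.5 and 35.5 on the QKD arrays at 30%E, a called decrease. At that stage *sox3* and *sox19b* were called higher, by 0.65 and 1.77 in log2, and *sox19a* was higher with the replicate number as a block (change 0.40, adjusted p = 0.0576, with the block 0.0176). All 4 targeted transcripts were called higher in QKD embryos at 75%E and TB, with log2 changes from 0.51 (*sox19a* at 75%E) to 2.25 (*sox2* at 75%E). In whole-embryo RNA, fewer cells of a type and less RNA per cell cannot be told apart.

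Hox signals in WT embryos were low at 30%E and rose in steps. The mean signal of 14 of the 42 genes exceeded 24.1 at 30%E, that of 27 did at 75%E, and that of 40 did at TB. No gene exceeded a signal of 100 at 30%E, 2 did at 75%E and 12 did at TB. In QKD embryos 14, 20 and 38 genes exceeded 24.1 at the 3 stages, and 0, 0 and 6 exceeded 100. *hoxd11a* stayed below 20.6 in all 6 groups.

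**Figure D1:**
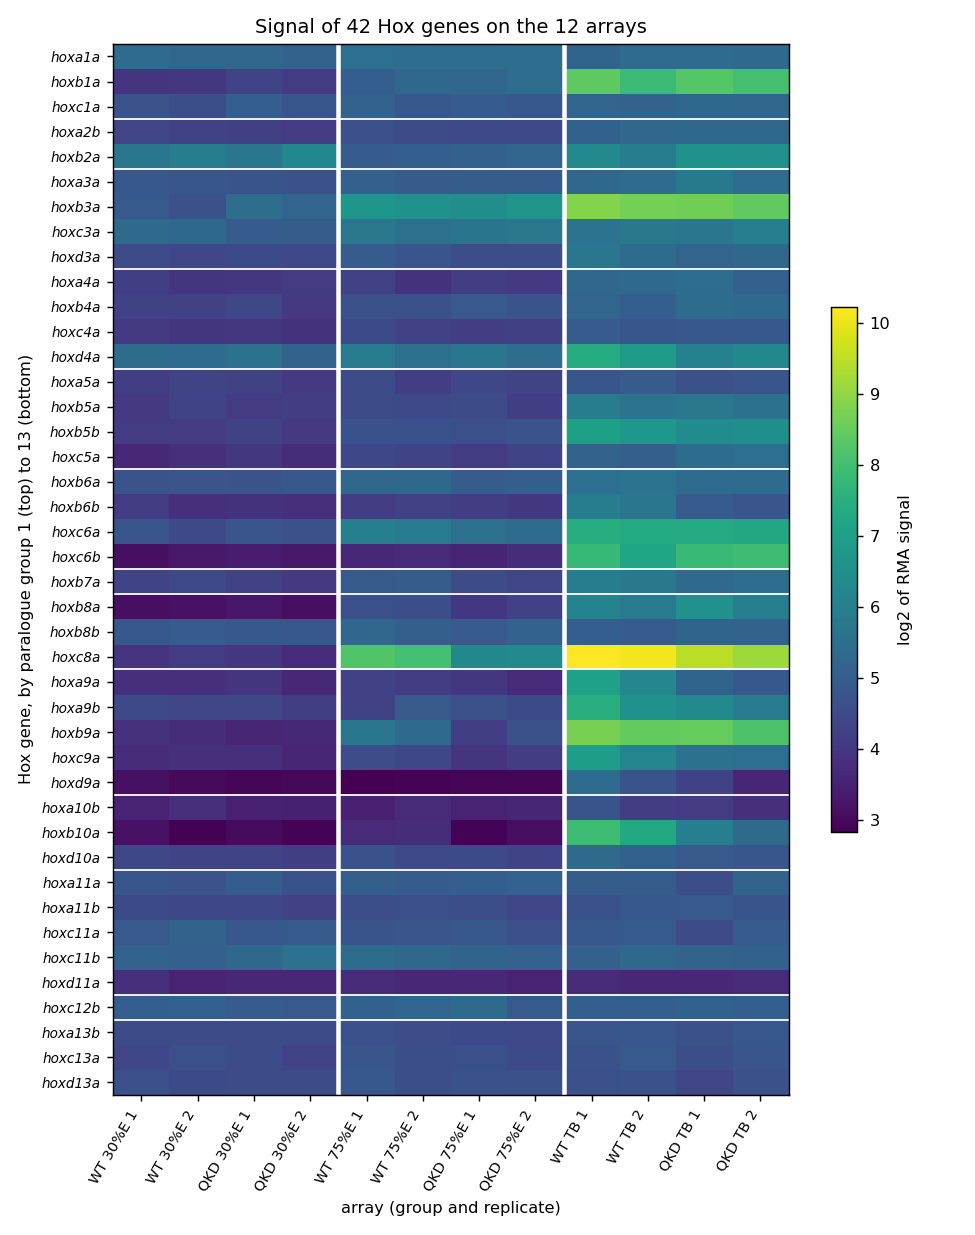
Log2 of the RMA signal (colour) of the 42 Hox genes, in rows ordered by paralogue group from 1 at the top to 13 at the bottom, on the 12 arrays in columns, with stages set apart by the white vertical lines. Colours compare arrays within a row and not one gene with another. The signals of 40 genes in WT and of 38 in QKD embryos exceeded 24.1 at TB.

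Between 30%E and 75%E, 19 Hox genes were called higher and 1 lower in WT embryos (45.2% and 2.38% of the 42, where 30.2% and 27.0% of all probe sets were called higher and lower). *hoxc8a*, a trunk gene, went from 15.7 and 17.2 to 299 and 257 in these embryos, a log2 change of 4.08 (SE 0.14, adjusted p = 1.68e-09). *hoxb3a*, a hindbrain gene, went from 30.1 and 25.3 to 105 and 97.5 (log2 change 1.88, SE 0.14, adjusted p = 3.06e-07). *hoxb9a* and *hoxb8a* followed with changes of 1.73 and 1.45, and *hoxc6a* and *hoxb1a* with 1.32 and 1.17. The gene that fell was *hoxb2a*, a hindbrain gene with signals of 53.5 and 61.7 at 30%E, 31.8 and 32.7 at 75%E, and 82.4 and 61.7 at TB. Its other probe set was not called between 30%E and 75%E (log2 change 0.18, adjusted p = 0.181).

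From 75%E to TB, 28 Hox genes were called higher in WT embryos and 0 lower (66.7% of the 42, where 14.1% and 13.7% of all probe sets were called higher and lower). Without adjustment, 29 genes were higher and 0 lower at p under 0.05. The rise spanned the groups unevenly: 5 of 9 genes of groups 1 to 3, 15 of 16 of groups 4 to 8, all 8 of groups 9 and 10, and 0 of 9 of groups 11 to 13. These 4 ranges of groups were set after the values had been seen. The WT means of groups 11 to 13 at TB ran from 12.9 (*hoxd11a*) to 36.4 (*hoxc11b*), low signals at which a change can be understated. The counts depend on the probe set that stood for a gene. *hoxa3a* and *hoxb8b* were not called, while another probe set of each was called higher (log2 change 0.974 and 0.992, adjusted p = 0.0022 and 0.000147). Conversely, *hoxa10b* counts as higher, while its other probe set, near the background, was called lower (log2 change -0.32, adjusted p = 0.0411). *hoxd3a*, *hoxb8a*, *hoxc8a* and *hoxb10a* count as higher too, while another probe set of each was not called. All 10 genes of cluster ba rose.

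In the first groups, *hoxb1a*, which gives a hindbrain segment its identity, gave 32.6 and 39.0 at 75%E and 339 and 236 at TB in WT embryos, a log2 change of 2.99 (SE 0.17, adjusted p = 9.35e-07). In QKD embryos *hoxb1a* gave 38.7 and 45.4 at 75%E and 312 and 266 at TB. The QKD arrays thus lay between the WT arrays at TB, and the difference there was 0.03 in log2 (SE 0.17, adjusted p = 0.976). By in situ hybridization, possibly at another stage, the study reports an expanded *hoxb1a* domain in QKD embryos. A whole-embryo signal does not show the extent of a domain. *hoxb3a* reached 462 and 409 on the WT arrays against 395 and 342 on the QKD arrays at TB. Both QKD arrays were lower, with a log2 change of -0.24 that was not called (SE 0.14, adjusted p = 0.416).

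Of the genes with the steepest WT rise, *hoxc6b* went from 12.6 and 13.1, near the background, to 219 and 148, a log2 change of 3.80 (SE 0.16, adjusted p = 1.9e-07). *hoxc6b* in QKD embryos went from 12 and 13.9 to 229.7 and 243. Both QKD arrays at TB lay above both WT arrays, and the difference of 0.39 was not called (SE 0.16, adjusted p = 0.221). *hoxb9a*, a posterior trunk gene, went from 53.6 and 41.4 to 421 and 348 in WT embryos (log2 change 3.02) and from 18.2 and 25.5 to 353 and 283 in QKD embryos (log2 change 3.87). Its QKD and WT signals overlapped at TB.

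In QKD embryos, 14 Hox genes were called higher and 2 lower between 30%E and 75%E (33.3% and 4.76%, where 30.9% and 29.4% of all probe sets were called higher and lower). From 75%E to TB, 27 were called higher and 0 lower (64.3%, where 12.1% and 10.2% of all probe sets were called higher and lower), and 32 were higher and 0 lower at an unadjusted p under 0.05. Of the 28 genes that rose in WT embryos to TB, 25 were called higher in QKD embryos too. The 3 others were *hoxd4a* (log2 change 0.59, adjusted p = 0.0551), *hoxa5a* and *hoxa10b*. With the replicate number as a block shared by all stages, *hoxd4a* was called (adjusted p = 0.0246). The other probe set of *hoxd4a* was not called in QKD embryos (log2 change 0.44, adjusted p = 0.246, with the block 0.148). *hoxc1a* and *hoxa3a* were called higher in QKD embryos without being called in WT embryos. The other probe set of *hoxa3a*, near the background in all groups, was called higher in both. Its log2 changes were 0.974 in WT and 0.969 in QKD embryos (adjusted p = 0.0022 and 0.00306). Of groups 11 to 13, 0 of 9 genes were called higher in QKD embryos, and 2 were higher at an unadjusted p under 0.05.

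At 30%E, 1 Hox gene was called in the comparison of QKD with WT embryos, and it was higher (2.38% of the 42, where 5.14% of all probe sets were called higher and 2.92% lower). This was *hoxb3a*, with signals of 30.1 and 25.3 on the WT arrays against 43.9 and 37.8 on the QKD arrays and a log2 change of 0.56 (SE 0.14, adjusted p = 0.0246). At an unadjusted p under 0.05, 1 Hox gene was lower and 2 were higher at 30%E. The groups of *hoxb3a* did not overlap, and its call was lost without WT array 2 or either QKD array of this stage (adjusted p up to 0.189). Of the 42 genes, 10 had both QKD arrays below both WT arrays and 4 had both above (23.8% and 9.52%, where 26.9% and 22.7% of all probe sets lay so). *hoxc3a* was among the former, with 41.5 and 39.4 on the WT arrays against 31.8 and 32.1 on the QKD arrays. Its change of -0.34 was not called (SE 0.12, adjusted p = 0.135), and it was called lower with the replicate block (adjusted p = 0.0469, where 5.23% of all probe sets were called lower and 9.02% higher with the block).

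At 75%E, 4 Hox genes were called lower in QKD embryos and 0 higher (9.52% of the 42, where 3.90% of all probe sets were called lower and 4.49% higher). At an unadjusted p under 0.05, 8 genes were lower and 0 higher. Over the 42 genes the median change was -0.12 in log2, against -0.02 over all probe sets. Both QKD arrays lay below both WT arrays for 16 genes and above them for 3 (38.1% and 7.14%, where 25.1% and 21.7% of all probe sets lay so).

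The largest change at this stage was in *hoxc8a*, whose WT arrays gave 299 and 257 and whose QKD arrays gave 78.4 and 82.9. The QKD arrays were far below the WT arrays, with a log2 change of -1.78 (SE 0.14, adjusted p = 1.6e-05), or 3.44-fold. At 30%E the same gene had been near the background in both groups, at 15.7 and 17.2 on the WT arrays against 16.3 and 13.6 on the QKD arrays. The other probe sets of *hoxc8a* changed by -0.58 (adjusted p = 0.179, called lower with the replicate block at 0.0318) and by -0.10 (adjusted p = 0.749) at 75%E. Without the block, the brightest of the 3 was called.

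*hoxb9a* was at 53.6 and 41.4 on the WT arrays against 18.2 and 25.5 on the QKD arrays at 75%E. The groups did not overlap, and the change was -1.13 in log2 (SE 0.18, adjusted p = 0.00277). The other probe set of *hoxb9a* was lower too (log2 change -0.72, adjusted p = 0.0376). *hoxb7a*, a neighbour of *hoxb8a* in cluster ba, was at 30.0 and 31.3 on the WT arrays against 23.3 and 20.8 on the QKD arrays, a change of -0.48 (SE 0.11, adjusted p = 0.0248). *hoxc6a*, a trunk gene of cluster ca, was at 64.4 and 59.5 on the WT arrays against 46.7 and 43.1 on the QKD arrays, a change of -0.46 (SE 0.13, adjusted p = 0.0450). The groups of both genes stood apart. The call of *hoxb7a* was lost without any of the 4 arrays of this stage, and its other probe set was not called (log2 change -0.35, adjusted p = 0.417). That of *hoxc6a* was lost in 10 of the 12 fits that left out an array (adjusted p up to 0.240).

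With the replicate block, *hoxb8a* and *hoxb10a* were called lower at 75%E as well, which made 6 lower and 0 higher (where 7.80% of all probe sets were called lower and 9.11% higher with the block). *hoxb8a* gave 24.8 and 24.2 on the WT arrays against 16.3 and 19.1 on the QKD arrays (log2 change -0.47, SE 0.17, adjusted p = 0.122, with the block 0.0182). The other probe sets of *hoxb8a* changed by -0.32 and 0.20 and were not called with the block (adjusted p = 0.0720 and 0.293). *hoxb10a* gave 13 and 13.8 on the WT arrays against 7.52 and 8.53 on the QKD arrays, near the background in both (log2 change -0.74, SE 0.22, adjusted p = 0.0643, with the block 0.000451). Of its other probe sets, 1 was lower with the block (log2 change -0.37, adjusted p = 0.153, with the block 0.0357). Of the 6 genes called lower with the block, 4 belong to cluster ba (*hoxb7a*, *hoxb8a*, *hoxb9a* and *hoxb10a*) and 2 to cluster ca (*hoxc6a* and *hoxc8a*).

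**Figure D2:**
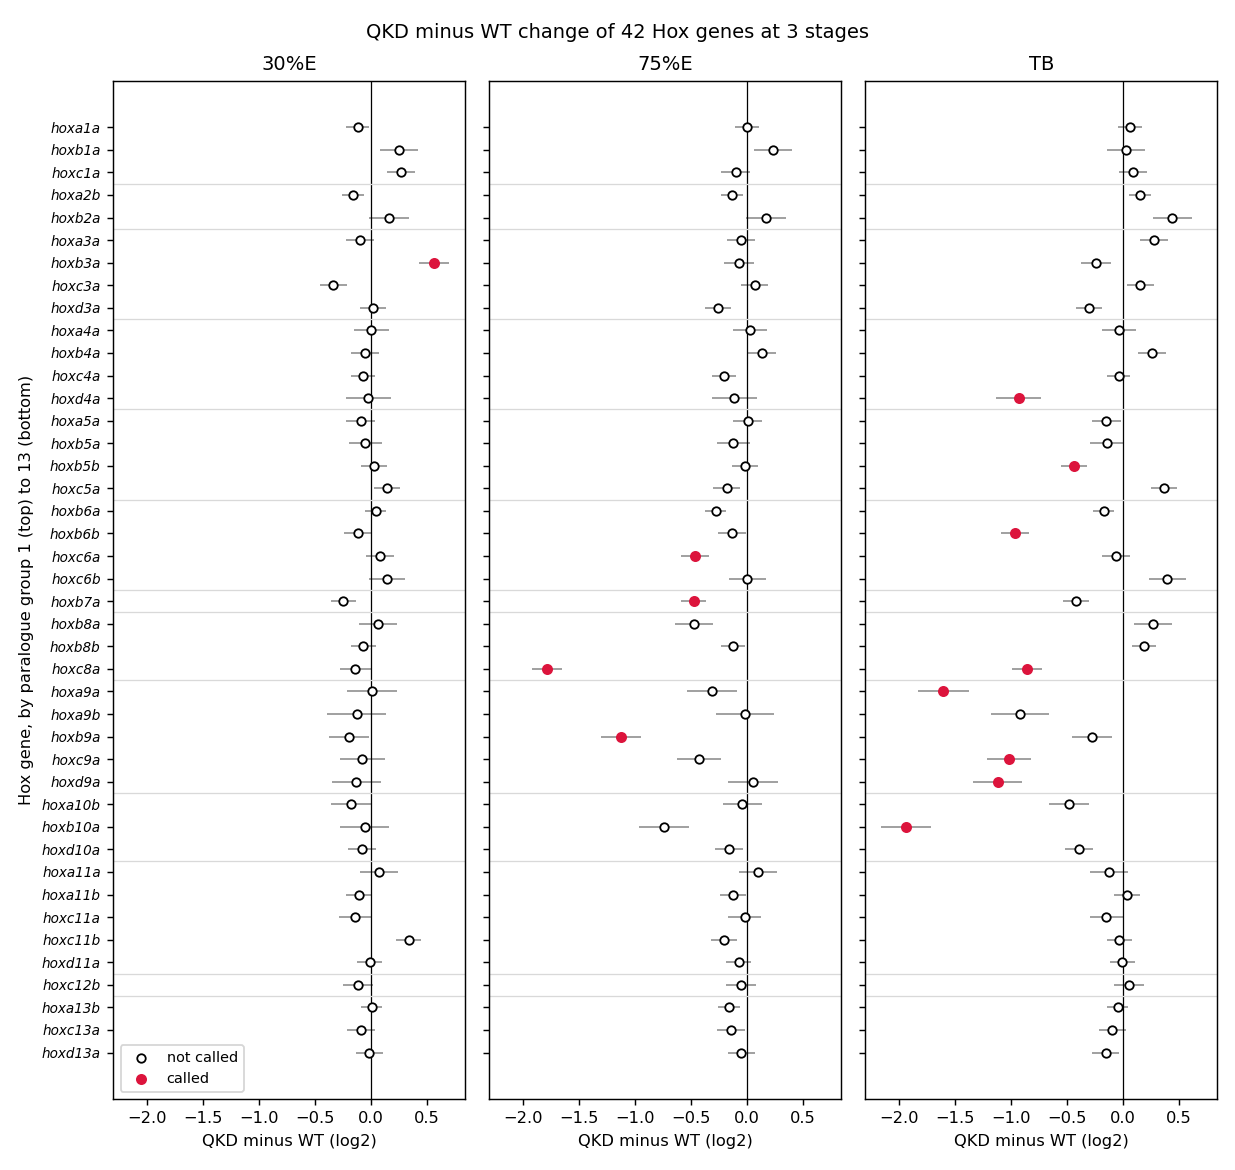
QKD minus WT change in log2 signal (horizontal axis) of the 42 Hox genes (rows, paralogue group 1 at the top to 13 at the bottom) at 30%E, 75%E and TB, with bars of 1 SE from the fit over all 12 arrays. Filled red points mark genes called at an adjusted p under 0.05: 1 higher at 30%E, 4 lower at 75%E and 8 lower at TB.

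At TB, 8 Hox genes were called lower in QKD embryos and 0 higher (19% of the 42, where 3.21% of all probe sets were called lower and 3.15% higher). At an unadjusted p under 0.05, 13 genes were lower and 3 higher. The median change over the 42 genes was -0.11 in log2, against 0.01 over all probe sets. Both QKD arrays lay below both WT arrays for 16 genes and above them for 8 (38.1% and 19%, where 21.5% and 25.7% of all probe sets lay so). Among the called genes only *hoxc8a* had also been called lower at 75%E.

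The called genes lay in the middle and upper-middle paralogue groups. Of groups 1 to 3, 0 of 9 genes were called (1 lower and 1 higher at an unadjusted p under 0.05) and the median change was 0.09. Of groups 4 to 8, 4 of 16 were lower, with a median of -0.11. Of groups 9 and 10, 4 of 8 were lower, all 8 had a change below 0, and the median was -0.97. Of groups 11 to 13, with low WT means of 12.9 to 36.4, 0 of 9 were called, adjusted or not, and the median was -0.05. The differences between these ranges of groups, set after the values had been seen, were not tested.

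Within groups 4 to 6, *hoxd4a*, a gene of the posterior hindbrain, gave 170.2 and 113 on the WT arrays against 67.4 and 78.2 on the QKD arrays at TB. The lower WT array was still above both QKD arrays, and the log2 change was -0.93 (SE 0.20, adjusted p = 0.0167). Its other probe set changed by -1.30 (adjusted p = 0.00888). The call of *hoxd4a* was lost without WT array 1 or either QKD array of this stage, with a change of -0.63 without the former. *hoxb5b* gave 131 and 109 on the WT arrays against 85.7 and 91.4 on the QKD arrays, a change of -0.44 (SE 0.12, adjusted p = 0.0457). Its groups did not overlap, and this call was lost in 7 of the 12 fits that left out an array (adjusted p up to 0.303). *hoxb6b*, its neighbour in cluster bb, gave 61.0 and 53.2 on the WT arrays against 31.0 and 27.6 on the QKD arrays, a change of -0.96 (SE 0.13, adjusted p = 0.000763). The QKD arrays of *hoxb6b* were well below the WT arrays, and the call held with each array left out in turn.

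Both called genes of cluster bb have a duplicate in cluster ba that was not called at TB. *hoxb5a* was at 63.0 and 50.2 on the WT arrays against 54.0 and 47.9 on the QKD arrays, with a change of -0.14 (SE 0.15, adjusted p = 0.736). *hoxb6a* was at 46.4 and 49.7 on the WT arrays against 42.9 and 42.2 on the QKD arrays, with a change of -0.17 (SE 0.09, adjusted p = 0.391). The groups of *hoxb5a* overlapped and those of *hoxb6a* did not. Whether the duplicates differed from each other in their change was not tested, nor was whether a probe set of one also reads the other.

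*hoxc8a* was at 1197 and 1091 on the WT arrays against 699 and 567 on the QKD arrays at TB. The QKD arrays remained below the WT arrays, with a change of -0.86 (SE 0.14, adjusted p = 0.0028). Its other probe sets changed by -1.03 (adjusted p = 0.0251) and by -0.26 (adjusted p = 0.342). *hoxb8a* and *hoxb8b*, of the same paralogue group, were not called, with changes of 0.27 (SE 0.17, adjusted p = 0.487) and 0.19 (SE 0.11, adjusted p = 0.438). Of the other probe sets of *hoxb8a*, 1 was called higher with the replicate block (log2 change 0.43, adjusted p = 0.167, with the block 0.0292) and 1 was not called (log2 change -0.19, adjusted p = 0.508). The other probe set of *hoxb8b* changed the other way, by -0.18, and was not called (adjusted p = 0.550).

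Group 9 genes, which in the mouse act in the posterior trunk and the forelimb bud, held 3 of the 8 calls. *hoxa9a* gave 132 and 75.5 on the WT arrays against 37.1 and 29.2 on the QKD arrays at TB, a change of -1.60 (SE 0.23, adjusted p = 0.0014) or 3.04-fold. Its WT arrays differed widely and both still exceeded both QKD arrays. The other probe set of *hoxa9a* changed by -2.53 (adjusted p = 2.07e-05). *hoxc9a* gave 127 and 74.2 on the WT arrays against 49.2 and 46.6 on the QKD arrays, a change of -1.02 (SE 0.20, adjusted p = 0.0104). *hoxd9a* gave 42.4 and 26.9 on the WT arrays against 19.6 and 12.4 on the QKD arrays, a change of -1.12 (SE 0.22, adjusted p = 0.0103). The QKD arrays lay below the WT arrays for both genes, and for *hoxd9a* they were near the background. The call of *hoxc9a* was lost without either QKD array of TB, and its change was -0.63 without WT array 1. The call of *hoxd9a* was lost without WT array 1 or QKD array 2 of TB (adjusted p up to 0.0909).

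*hoxa9b*, the duplicate of *hoxa9a* in cluster ab, gave 178 and 99.7 on the WT arrays against 82.3 and 60.2 on the QKD arrays at TB. Its groups stood apart in the same direction, with a change of -0.92 that was not called (SE 0.26, adjusted p = 0.0649, with the replicate block 0.00563). *hoxb9a*, called lower at 75%E, was at 421 and 348 on the WT arrays against 353 and 283 on the QKD arrays at TB. Its groups overlapped, and the change was -0.28 (SE 0.18, adjusted p = 0.509).

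Among the probe sets that stood for a gene, *hoxb10a*, the last gene of cluster ba on the array, changed most at TB. The other probe set of *hoxa9a* changed more, by -2.53 in log2. *hoxb10a* gave 243 and 159 on the WT arrays against 63.4 and 41.4 on the QKD arrays. The QKD arrays were below the WT arrays, with a log2 change of -1.94 (SE 0.22, adjusted p = 0.000307), or 3.83-fold. Of its other probe sets, 1 was called lower (log2 change -1.06, adjusted p = 0.000996) and 1 was not (log2 change -0.03, adjusted p = 0.963). The other group 10 genes were lower without being called. *hoxa10b* gave 27.0 and 18.1 on the WT arrays against 17.2 and 14.5 on the QKD arrays, near the background on all but WT array 1. Its other probe set, near the background too, changed by 0.09 and was not called (adjusted p = 0.796, with the block 0.621). *hoxd10a* gave 41.5 and 35.1 on the WT arrays against 29.9 and 28.2 on the QKD arrays. With the replicate block *hoxa10b* and *hoxd10a* were called lower (adjusted p = 0.0217 and 0.0159, against 0.156 and 0.0930 without it).

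With that block, 12 Hox genes were called lower and 1 higher at TB (where 6.34% of all probe sets were called lower and 7.26% higher with the block). Besides *hoxa9b*, *hoxa10b* and *hoxd10a*, the block added *hoxb7a*, at 61.6 and 55.2 on the WT arrays against 41.8 and 45.5 on the QKD arrays (log2 change -0.42, adjusted p = 0.0525, with the block 0.0374). The other probe set of *hoxb7a* changed by -0.65 (adjusted p = 0.116, with the block 0.0338). The gene called higher was *hoxb2a*, at 82.4 and 61.7 on the WT arrays against 98.6 and 94.9 on the QKD arrays (log2 change 0.44, adjusted p = 0.206, with the block 0.0344). Its other probe set changed by 0.08 (adjusted p = 0.815).

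**Figure D3:**
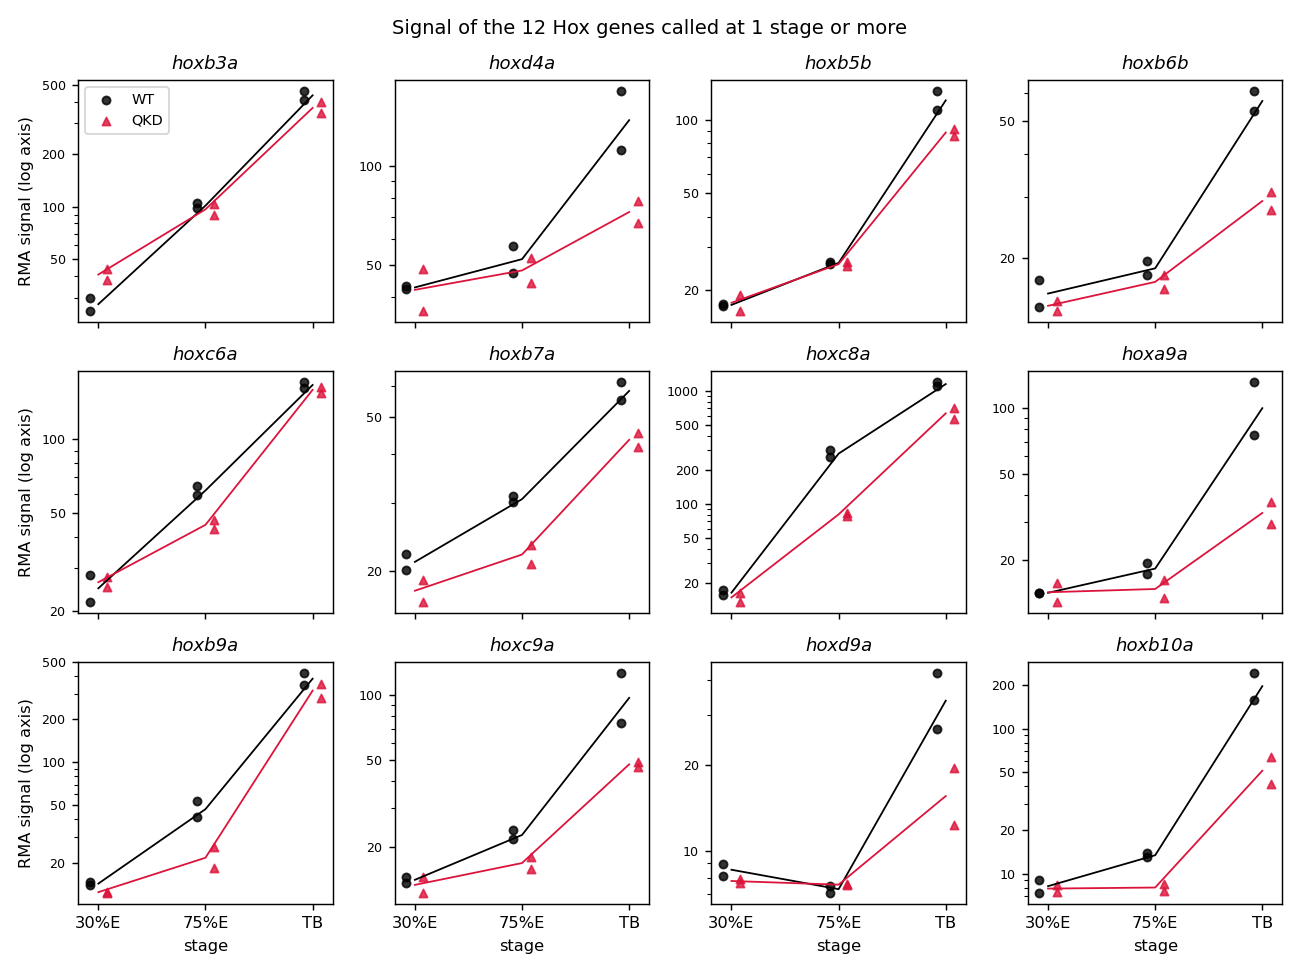
RMA signal on each array (log axis, a scale of its own for each gene) of the 12 Hox genes called at 1 stage or more, at 30%E, 75%E and TB, with WT arrays as black circles, QKD arrays as red triangles and lines through the group means of log2 signal. *hoxc8a* and *hoxb9a* part at 75%E, while *hoxa9a*, *hoxd9a* and *hoxb6b* part at TB.

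The 2 WT arrays of TB differed in these genes. WT array 1 was above WT array 2 in all 8 genes called lower at TB, by a median of 0.61 in log2, and in 24 of the 28 genes that rose in WT embryos, by a median of 0.27. Over all probe sets the median of this difference was -0.01, with an SD of 0.23. In the QKD arrays of TB, array 1 was above array 2 in 6 of the 8 genes, by a median of 0.23. The part of this in the results was not tested beyond leaving out each array. Without an array the count of genes lower at TB ran from 4 (without QKD array 2 of TB) to 10 (without WT array 2 of TB).

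All 8 genes had both QKD arrays of TB above both WT arrays of 75%E. The other Hox genes called higher in WT embryos from 75%E to TB lay so too, and the share of all probe sets was not counted. Of the 8, *hoxb6b*, *hoxa9a*, *hoxd9a* and *hoxb10a* were near the background in WT embryos at 75%E. Within QKD embryos 7 of the 8 were called higher from 75%E to TB, as were 25 of the 28 genes that rose in WT embryos. The rises to TB, in WT and in QKD embryos, were 3.88 and 2.68 for *hoxb10a*, 2.46 and 1.16 for *hoxa9a*, 2.21 and 1.04 for *hoxd9a*, and 2.10 and 1.51 for *hoxc9a*. They were 1.61 and 0.78 for *hoxb6b* and 2.21 and 1.79 for *hoxb5b*, while *hoxa9b* rose by 2.47 and 1.57. For *hoxc8a* they were 2.04 and 2.97, and for *hoxb8a* 1.41 and 2.15, so that these probe sets rose further in QKD embryos. The other probe sets of *hoxc8a* rose less there (1.86 and 1.41, and 0.38 and 0.21). Those of *hoxb8a* were split, with 0.92 and 1.66 for one and 0.30 and -0.09 for the other. The WT arrays of TB enter both these rises and the comparison of QKD with WT embryos at TB, so the values stand side by side and are not independent.

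**Figure D4:**
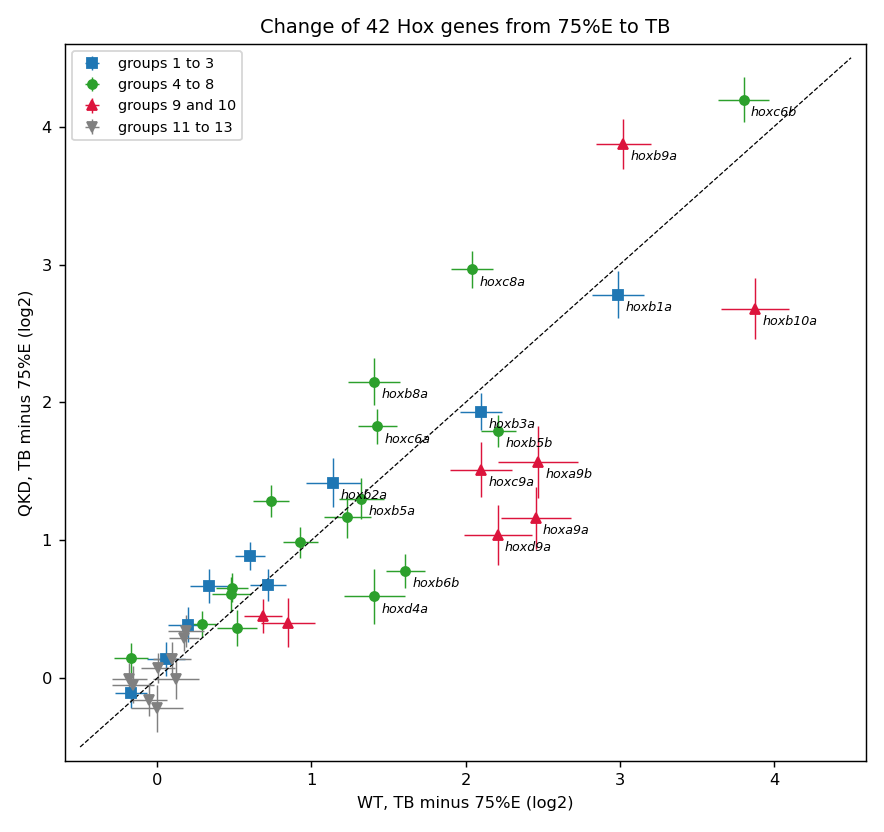
Change in log2 signal from 75%E to TB in WT embryos (horizontal axis) and in QKD embryos (vertical axis) of the 42 Hox genes, with bars of 1 SE and the line of equal change dashed. *hoxb10a*, *hoxa9a* and *hoxd9a* of groups 9 and 10 lie below the line, and *hoxb9a*, *hoxc8a* and *hoxb8a* lie above it. Groups 11 to 13 stay near 0 on both axes. Each gene is read by its brightest probe set, and the other probe sets of *hoxc8a* rose less in QKD embryos.

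The difference between stages in the effect of the knockdown was tested directly. From 30%E to 75%E the QKD effect moved down in 1 Hox gene and up in 0 (where 2.48% of all probe sets moved down and 2.08% up). This was *hoxc8a*, whose effect went from -0.14 to -1.78, a difference of -1.64 (SE 0.19, adjusted p = 0.000863). Its other probe sets gave differences of -0.62 and 0.12 and were not called, with or without the block. With the replicate block 6 genes moved down and 0 up (where 6.71% and 5.39% of all probe sets did): besides *hoxc8a*, these were *hoxb3a* (-0.64), *hoxc6a* (-0.55), *hoxb9a* (-0.93), *hoxb10a* (-0.69) and *hoxc11b* (-0.54), with adjusted p of 0.00735 to 0.0449 in that fit and of 0.0687 to 0.292 without the block. From 75%E to TB the effect moved in 0 of the 42 Hox genes by limma, each read by its brightest probe set (where 0.464% of all probe sets moved down and 0.213% up), while 7 moved down and 5 up at an unadjusted p under 0.05. The other probe set of *hoxa9a*, near the background in both groups at 75%E, was called in this test, with a difference of -2.36 (SE 0.28, adjusted p = 0.00341). With the block 4 genes moved down and 2 up (where 1.70% and 1.16% of all probe sets did). Those that moved down, all near the background in both groups at 75%E, were *hoxb6b* (-0.83), *hoxa9a* (-1.29), *hoxd9a* (-1.17) and *hoxb10a* (-1.20). In the same fit *hoxc8a* (0.92) and *hoxb8a* (0.74) moved up. The adjusted p of these 6 genes ran from 0.00161 to 0.0405 with the block and from 0.0638 to 0.266 without it. The other probe sets of *hoxc8a* gave -0.45 and -0.16 here and were not called with the block. Those of *hoxb8a* gave 0.75, called with the block (adjusted p = 0.0331), and -0.39, not called. Those of *hoxb10a* gave -0.69, called with the block (adjusted p = 0.0373), and 0.13, not called (0.805). From 30%E to 75%E the other probe sets of *hoxb10a* gave -0.31 and -0.09, not called with the block (adjusted p = 0.214 and 0.825). The other probe set of *hoxb9a* gave -0.75 there, called with the block (adjusted p = 0.0247).

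Factors that act with or upstream of Hox genes were read from lists in the same comparisons. Some genes stand in several of the factor and marker lists, among them *fgf3*, *fgf8a*, *cdx4*, *eve1* and *egr2b*. The counts of different lists are thus not independent. Of Hox cofactors, which bind DNA beside Hox proteins, 12 of 15 were measured, and at 75%E and TB 1 was called lower and 1 higher. *pbx3b* was higher by 0.65 at 75%E and by 2.37 at TB, and *meis2b* had changes of -1.08 and -0.86 there. The median over the list was 0.07 at 75%E and 0.08 at TB, against -0.02 and 0.01 over all probe sets. At 30%E, 0 of 12 were called by limma, adjusted or not.

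Of a list of Cdx genes, whose products activate posterior Hox genes, and even-skipped genes, 5 of 6 were measured. *cdx4* and *eve1* fell at 30%E, with log2 changes of -2.31 and -2.32 (adjusted p = 3.84e-07 and 6.19e-06), and 0 of the 5 were called at 75%E or TB, where *cdx1a* at 75%E (-0.45) and *eve1* at TB (-0.32) were called lower with the replicate block (adjusted p = 0.0214 and 0.0389). At an unadjusted p under 0.05, 1 of the 5 was lower at 75%E and 0 at TB. The summed signal of the 5 was 595 to 676 in WT and 207 to 212 in QKD embryos at 30%E, and 4326 to 4473 and 3891 to 3896 at TB. Of posterior Wnt and Fgf ligands, listed together with *gdf3* and *gdf11*, 7 of 12 were measured. *fgf8a* and *fgf3* fell at 30%E (-1.43 and -0.80), 0 were called at 75%E (2 lower at an unadjusted p under 0.05), and *fgf8a* fell at TB (-0.69).

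Of 28 genes of retinoic acid synthesis, binding, degradation and reception, 20 were measured. At 30%E 2 were lower and 1 higher, at 75%E 2 were lower, and at TB 4 were lower. With the block, 2 were lower and 3 higher at 30%E. *cyp26a1*, which encodes the enzyme that breaks down retinoic acid, had a change of 0.53 at 30%E that was called with the block alone (adjusted p = 0.147, with the block 0.0168), fell by 1.67 at 75%E (adjusted p = 0.000341) and fell by 0.89 at TB (adjusted p = 0.0187). *crabp2b*, which encodes a retinoic acid binding protein, had changes of -2.51, -3.03 and -2.07 at the 3 stages, all called, and *crabp2a* fell by 1.51 at TB. *aldh1a2*, which encodes the enzyme that makes retinoic acid, fell by 0.49 at 30%E (adjusted p = 0.0489), and *rdh10b* was higher there by 0.70. The list's median was -0.01, -0.10 and -0.09 at the 3 stages, against -0.03, -0.02 and 0.01 over all probe sets.

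Of 14 hindbrain segmentation factors, 12 were measured, with 4 lower and 1 higher at 30%E, 1 lower at 75%E, and 4 lower and 1 higher at TB. At TB *nr2f5* (-2.53), *egr2b* (-1.01), a factor of odd-numbered hindbrain segments, and *gbx2* (-0.92) fell. With the block, 4 of these factors were lower and 2 higher at 75%E. A list of 35 chromatin regulators held Polycomb and trithorax genes, which keep Hox genes silent or active, and others such as *ctcf* and *rad21a*. Of these, 23 were measured: 5 were higher at 30%E, 3 at 75%E and 1 at TB, and 0 were lower (with the block 8, 3 and 2 higher, and 0, 3 and 1 lower). Without adjustment, 0, 3 and 2 of them were lower at p under 0.05. *bmi1a*, a Polycomb component, was higher by 2.27 at 75%E and by 1.31 at TB.

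Markers of tissues that express Hox genes moved in different directions at TB. Of 9 tailbud and posterior mesoderm markers measured of 10, 0 were lower and 1 (*noto*) was higher (0 and 3 at an unadjusted p under 0.05, and 1 and 3 with the replicate block, which added *eve1* as lower and *tbx6* and *tbx16* as higher), and their summed signal was 11318 to 11641 in WT and 12080.2 to 12414 in QKD embryos. At 30%E 6 of these 9 were lower, with sums of 7313 to 7946 in WT and 5106 to 5670.3 in QKD embryos, and at 75%E *tbxta* was higher. Of 11 paraxial and lateral mesoderm markers, 0 were lower and 1 was higher at TB (1 and 5 at an unadjusted p under 0.05, and 1 and 3 with the block), with sums of 2212 to 2363 in WT and 2796 to 2848 in QKD embryos. Of 7 posterior neural plate markers, 4 were lower at TB, among them *neurog1* (-3.74) and *egr2b* (-1.01). The other called gene was *sox3*, a target of the MOs, which was higher, and with it the summed signal was 5200 to 5373 in WT and 8895 to 9290 in QKD embryos. At 75%E 2 of these 7 were lower and 1 higher.

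Some markers of cells that should lack most Hox genes were lower at TB. Of 10 anterior neural plate markers, 5 were lower and 0 higher (6 and 2 at an unadjusted p under 0.05), with sums of 3842 to 3863 in WT and 2805 to 3179 in QKD embryos. Of 8 markers of non-neural ectoderm and the enveloping layer, 5 were lower and 0 higher, adjusted or not (27127 to 28308 and 25296 to 25976). Of 7 genes of the p53 response, which MOs can set off, 4 were higher at TB (*mdm2*, *ccng1*, *bbc3* and *phlda3*) and 0 lower, with sums of 2776 to 3109 in WT and 4170 to 4737 in QKD embryos. At 75%E *bbc3* was higher and at 30%E 0 were called (1 higher at an unadjusted p under 0.05). The part of these markers in the Hox results was not tested.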

How the data were processed

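Total RNA of 100 embryos per sample was labelled from 4 µg and hybridised to Affymetrix Zebrafish Genome arrays. The authors made the deposited intensity values with RMA, which corrects background, normalises arrays and summarises each probe set; its version and the arrays processed together are not given in the sources used here. The deposited intensity is linear, with 0 values at 0 or missing. Of 15617 probe sets, 115 controls were left out, and log2 of the intensity was tested with the limma package 3.58.1 of R 4.3.3 (eBayes on 6 group means, 6 residual and 5.11 prior degrees of freedom), with Benjamini-Hochberg adjustment over 15502 probe sets a comparison. The fit was tested on simulated data. Probe sets were named through GEO's platform annotation, with symbols updated by gene ID through RefSeq. The Hox members and all gene lists were chosen with earlier results of these data known. Signals per array are given for members called between QKD and WT and for the 10 steepest WT rises from 75%E to TB, and at most the 3 largest called changes of a list and stage are named. Members given beside these as duplicates, as group neighbours or as called with the block were chosen after their values were seen.

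WT and QKD samples of a stage carry the same replicate numbers. The deviations of same-numbered samples from the group means, over all probe sets, correlated at 0.615, 0.443 and 0.488 at 30%E, 75%E and TB, and at -0.0835 to 0.183 in the 12 pairs of groups of different stages. Over the Hox genes alone, same-numbered samples correlated at 0.116, -0.0983 and 0.451 at 30%E, 75%E and TB. At 30%E and 75%E the Hox genes thus showed little of this pairing, which limits calls made there with the block alone. From the values over all probe sets, the numbers were read as pairs within a stage. The fit with the number as a block was the alternative. For changes between stages within WT or QKD embryos, that fit instead used a difference between replicate numbers shared by all groups. The low correlations between stages give little ground for such a shared difference. The labels call the samples biological replicates, and 2 arrays a group limit the precision. Other alternatives were a variance trend, the omission of dim probe sets (below percentile 40 of mean log2), centring of each array on its median, quantile normalization applied again, a fit on the compared groups alone, adjusted p under 0.01, a ratio of mean signals over 2, all probe sets of a gene, and leaving out each array.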

Additional observations from a re-analysis of the deposited data

Results flagged for a closer look

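The QKD effect differed between 2 stages, by a test of the difference itself, in the brightest probe set of *hoxc8a* and in 1 probe set of *hoxa9a*. For *hoxc8a* the QKD minus WT change went from -0.14 at 30%E, where both groups were near the background, to -1.78 at 75%E, a difference of -1.64 in log2 (SE 0.19, limma adjusted p = 0.000863). Its other probe sets were not called in the comparison of QKD with WT embryos at 75%E. With the replicate block 1 of them was called lower there (log2 change -0.58, adjusted p = 0.0318). In the test of the difference itself they gave -0.62 and 0.12 (limma adjusted p = 0.398 and 0.834). Neither was called with the block (adjusted p = 0.107 and 0.677). The less bright probe set of *hoxa9a* went from -0.18 at 75%E to -2.53 at TB, a difference of -2.36 (SE 0.28, adjusted p = 0.00341), while the brighter one was called in this test with the block alone (-1.29). Both probe sets of *hoxa9a* were near the background in both groups at 75%E, where a change can be understated.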

How the results depend on the processing

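The count of Hox genes lower in QKD embryos at TB, 8, was 2 with dim probe sets dropped, and 4 with the compared groups alone, at an adjusted p under 0.01, or by a ratio over 2. It was 12 with the replicate block, with 1 higher, and 4 to 10 with an array left out (0 to 1 higher). At 75%E the 4 lower became 2 at p under 0.01 and by the ratio, and 2 to 4 with an array left out. At 30%E the 1 higher became 0 with the compared groups alone, at p under 0.01 and by the ratio, and 0 to 1 with an array left out, while the block added 1 lower. The block called 2210, 2622 and 2109 probe sets at 30%E, 75%E and TB, against 1249, 1301 and 986, and leaving out an array 579 to 1456, 615 to 1205 and 536 to 1162.

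In WT embryos the 19 higher from 30%E to 75%E became 12 after a second quantile normalization (2 lower), 5 with dim probe sets dropped, 11 at p under 0.01, 6 by the ratio (0 lower) and 11 to 19 with an array left out. The 28 higher from 75%E to TB became 7 with dim probe sets dropped, 18 by the ratio and 25 to 28 with an array left out. Over all probe sets of a gene, 1 was lower (*hoxa10b*). In QKD embryos the 14 higher became 9 after the second normalization and at p under 0.01, 5 with dim probe sets dropped, 3 by the ratio and 9 to 14 with an array left out. The 2 lower became 1 with median centring, the dim filter, the variance trend, the compared groups alone or p under 0.01, 0 by the ratio, and 1 to 2 with an array left out. The 27 higher became 7 with the dim filter, 17 by the ratio and 23 to 29 with an array left out (0 to 1 lower). For the difference between stages, the block moved 6 down at 75%E against 30%E (1 without it, 1 to 2 with an array left out). At TB against 75%E it moved 4 down and 2 up; there the second normalization gave 1 up, all probe sets of a gene 1 down (*hoxa9a*), and an array left out 0 to 2 down. The ratio gives no value for these differences.

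Changes that turned sign were small and not called. At 30%E, median centring turned *hoxb5b* to -0.0128 and *hoxa9a* to -0.0326. With an array left out, 30%E changes ran from -0.249 to 0.0132 for *hoxb6b*, -0.207 to 0.0964 for *hoxb10a*, -0.0996 to 0.265 for *hoxc6a*, -0.0800 to 0.136 for *hoxb5b*, -0.14 to 0.15 for *hoxa9a*, -0.24 to 0.19 for *hoxd4a* and -0.199 to 0.0433 for *hoxc9a*. At 75%E they ran from -0.253 to 0.0234 for *hoxd4a*, -0.178 to 0.0368 for *hoxb3a* and -0.0480 to 0.0146 for *hoxb5b*. The dim filter tests fewer Hox genes, and the stricter thresholds call fewer by construction; the cause of the other shifts was not tested. Members near the background are limited by signal over background, and a change there can be understated.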
